A study of Mus musculus with 8 samples.

Results

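Disease-associated microglia genes are a set of transcripts that microglia raise around amyloid plaques, degenerating myelin and dying neurons. The set followed here was chosen by gene symbol, with earlier results of these data known. It has 10 members: Itgax, Axl, Apoe, Cst7, Lpl, Clec7a, Trem2, Tyrobp, Csf1 and Spp1. Of these 10, 9 had a row among the 32285 genes of the feature list, and Clec7a was not analysed here. They were followed in single-nucleus RNA sequencing of C57BL/6JN mouse brain, in nuclei from punches of the left anterior hippocampus and the left caudate putamen at 3 and 21 months of age. Each of the 4 groups (hippocampus at 3 months, hippocampus at 21 months, caudate putamen at 3 months, caudate putamen at 21 months) had 2 libraries, and in each library the nuclei of a male and a female mouse of that age were mixed in equal numbers. No disease model, allele or treatment is named for any group, so every comparison below is between young and old brains of 1 inbred strain. The labels do not say whether both regions came from the same animals. A library is the unit of replication, and p-values measure the spread between these pools of 2 animals.

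Microglia are the resident macrophages of the brain. In the homeostatic state they carry receptors such as P2ry12, Cx3cr1 and Tmem119. In the disease-associated state these fall, while genes for lipid handling, lysosomal digestion and adhesion rise. The receptor Trem2 senses lipids and signals through the adaptor Tyrobp, and a full switch to the later genes of the programme is known to need Trem2. Members were therefore read in 2 roles: the early members Apoe, Trem2 and Tyrobp, and the later, inducible members Itgax, Axl, Cst7, Lpl, Csf1 and Spp1, of which 6 could be measured.

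The deposited matrices held 109826 barcodes, and 97912 nuclei were retained, 6382 to 17031 per library, with 67205436 to 234811422 unique molecular identifiers (UMIs, counted RNA molecules) per library. Microglia-like nuclei formed 1 cluster in each region, with the 9 measured members left out of the genes used for clustering. There were 2603 of them, 885 in the hippocampus and 1718 in the caudate putamen, 165 to 647 per library. All 14 of 14 fixed microglia markers reached 1 CPM in each library, summing to 9593 to 13297 CPM. CPM is a gene's count scaled by the total count of the class in that library. These markers also named the cluster, so their presence does not check the label. Perivascular macrophages, brain-border cells that share many transcripts with microglia, clustered apart, with 82 nuclei in the hippocampus and 29 in the caudate putamen. Within the microglia-like sums 2 to 4 of 8 macrophage markers were detected, at 179 to 267 CPM in all. Most of this was Stab1, at 170 to 259 CPM. Lyve1 and Cbr2 were at 0 in every library. In their highest libraries Ms4a7 and Cd163 had 11.7 and 7.61 CPM (both old caudate putamen) and Mrc1 10.7 CPM (old hippocampus). F13a1 and Pf4 had at most 3.52 and 1.49 CPM, in young libraries. Of 8 T cell markers, Cd3e and Cd3d were at 0 in every library, but the list summed to 60.9 and 85.9 CPM in the 2 old caudate putamen libraries against 1.57 to 11.9 CPM elsewhere. Libraries shared few barcodes, 1472 in more than 1 library and at most 146 in any pair.

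In microglia-like nuclei of both regions together, 3 members rose between 3 and 21 months: the adhesion receptor subunit Itgax, the receptor kinase Axl and the growth factor Csf1. Lpl and Apoe had positive differences that missed the threshold, and Trem2 and Tyrobp differed little. Counts were summed over the microglia-like nuclei of each library and tested with edgeR's quasi-likelihood test, with Benjamini-Hochberg adjustment over all 10221 genes tested and a threshold of 0.05. SE stands throughout for the size of the fitted difference divided by the square root of the test's F statistic. It is back-calculated from the test and is not a separate estimate of error. Of the 9 measured members 7 passed the filter on low counts, and 3 of these 7 were called for the mean age difference over both regions, where 153 of all genes tested, 1.5%, were called. Calls leaned upward over all genes, with 128 higher (1.25%) and 25 lower (0.245%). The median log2 difference over all genes tested was -0.02. A few nuclei carried much of some members' counts: 7 old and 0 young microglia-like nuclei had 10 or more UMIs of 1 member. The fit was repeated without them, an alternative chosen after seeing the data that leaves out nuclei by the members' own counts, and then Axl was called in the mean of both regions (3.21, SE 0.46, adjusted p = 0.000664), Csf1, Lpl, Apoe, Trem2 and Tyrobp were not, and Itgax fell below the filter and was not tested. The filter asked for 12.6 CPM in at least 2 of the 8 libraries. Axl reached it in 4 old and 0 young libraries and Itgax in 2 old and 0 young ones, so both entered the test through the age at which they were high, and their calls had to point upward. Lpl reached it in 4 old libraries and 1 young one, so it also needed old libraries to enter the test.

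**Figure D1:**
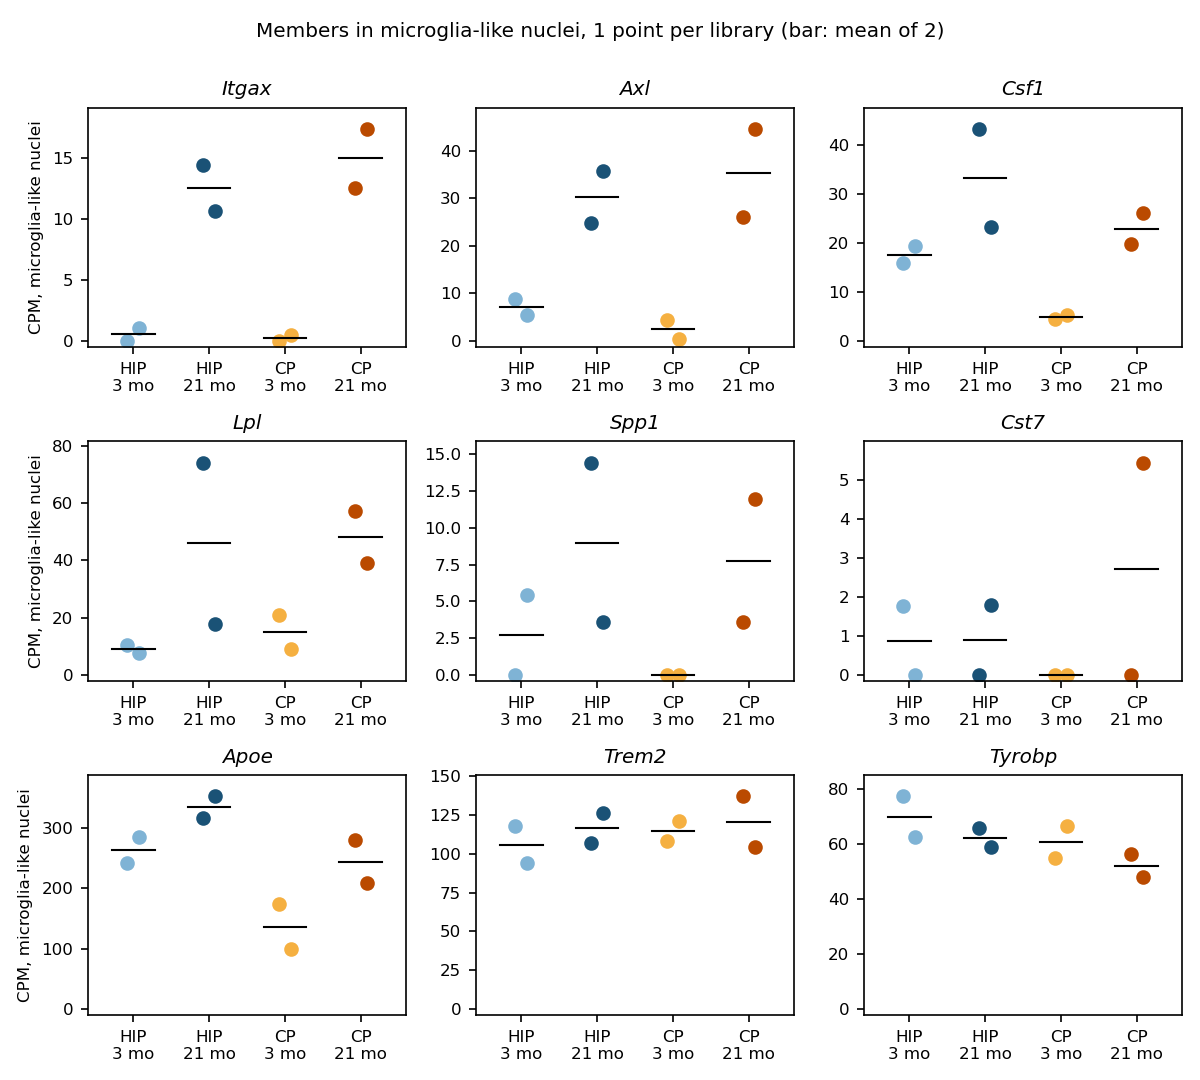
Level of each measured member in microglia-like nuclei, in CPM on a linear axis that starts at 0 in each panel, 1 point per library, for young and old hippocampus (HIP) and caudate putamen (CP), with a bar at the mean of 2 libraries. The old libraries of Itgax and Axl lie above all young ones in both regions, while those of Trem2 and Tyrobp intermingle with the young.

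Itgax (ENSMUSG00000030789, GRCm38 chromosome 7, 128129547 to 128150657, plus strand) encodes the integrin alpha subunit CD11c, which pairs with Itgb2 in an adhesion and complement receptor of myeloid cells. It stood at 0 and 1.08 CPM in the 2 young hippocampal libraries and at 14.4 and 10.7 CPM in the old ones. In the caudate putamen it stood at 0 and 0.524 CPM at 3 months and at 12.5 and 17.4 CPM at 21 months. Every old library was above every young library, and the young values rest on 2 UMIs in 2 nuclei among 1410. Summed over both regions, 43 UMIs at 21 months against 2 at 3 months gave a ratio of 28.4 per UMI sequenced, with an exact 95% interval of 7.41 to 242 that covers counting error only. The fitted mean difference was 4.43 on the log2 scale (SE 0.74, adjusted p = 0.00234). Since Itgax passed the filter through old libraries alone, this test could not have given a fall. Without the 7 nuclei it was not tested, but its level stayed at 10.6 and 10.8 CPM in old hippocampus and 7.25 and 17.5 CPM in old caudate putamen, each above every young library.

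Axl (ENSMUSG00000002602, chromosome 7, 25757273 to 25788705, minus strand) encodes a receptor tyrosine kinase of the Tyro3, Axl and Mertk family, which binds Gas6 and Pros1 bridged to dying cells. It was measured at 8.80 and 5.40 CPM in young and 24.7 and 35.6 CPM in old hippocampus. The caudate putamen libraries had 4.46 and 0.524 CPM at 3 months and 26.0 and 44.6 CPM at 21 months. The ages did not overlap in either region. The mean difference was 3.27 (log2, SE 0.43, adjusted p = 0.000246), and the summed counts, 102 against 14 UMIs, gave a ratio of 9.64 (exact 95% interval 5.49 to 18.25).

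Csf1 (ENSMUSG00000014599, chromosome 3, 107741048 to 107760469, minus strand) encodes the colony stimulating factor whose receptor, Csf1r, microglia need for survival. Its level was 15.8 and 19.4 CPM in young and 43.3 and 23.2 CPM in old hippocampus. In the caudate putamen it was 4.46 and 5.24 CPM at 3 months and 19.7 and 26.1 CPM at 21 months. Every old library was above every young one, but the highest young value, in the hippocampus, nearly met the lowest old one, in the caudate putamen. The mean difference was 1.53 (log2, SE 0.32, adjusted p = 0.0141). This call was lost without replicate 2 of the young caudate putamen (adjusted p = 0.117), without replicate 1 of the old hippocampus (0.151), with DESeq2 (0.0902) and without the 7 nuclei rich in 1 member (0.054). The difference itself ran from 1.29 to 1.73 over the 16 alternatives.

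The stretches upstream of the RefSeq start of the 3 genes that rose, and of Trem2, which did not pass the test, are shown to compare what lies directly before genes that did and did not move. Each is 250 bases of GRCm38.p6 from RefSeq, 5′ to 3′ on the gene's strand. The windows are chr7:128129300-128129549 plus for Itgax, chr7:25788734-25788983 minus for Axl, chr3:107760470-107760719 minus for Csf1 and chr17:48346151-48346400 plus for Trem2. Capitals mark matches, on either strand, to GAGGAA (the core bound by the myeloid factor PU.1), TCANGTG (the M-box bound by Mitf and Tfeb) and TGANTCA (an AP-1-like pattern, looser than the AP-1 site because it allows any middle base).
Itgax: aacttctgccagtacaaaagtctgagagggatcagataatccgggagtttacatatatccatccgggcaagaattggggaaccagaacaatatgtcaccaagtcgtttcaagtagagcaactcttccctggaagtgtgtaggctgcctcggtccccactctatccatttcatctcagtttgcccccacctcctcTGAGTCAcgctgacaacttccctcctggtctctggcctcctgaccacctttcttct
Axl: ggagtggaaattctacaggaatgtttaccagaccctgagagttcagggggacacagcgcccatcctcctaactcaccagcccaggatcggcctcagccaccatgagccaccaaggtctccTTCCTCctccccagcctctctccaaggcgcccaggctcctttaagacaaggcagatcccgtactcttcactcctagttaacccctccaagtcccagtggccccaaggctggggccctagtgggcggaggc
Csf1: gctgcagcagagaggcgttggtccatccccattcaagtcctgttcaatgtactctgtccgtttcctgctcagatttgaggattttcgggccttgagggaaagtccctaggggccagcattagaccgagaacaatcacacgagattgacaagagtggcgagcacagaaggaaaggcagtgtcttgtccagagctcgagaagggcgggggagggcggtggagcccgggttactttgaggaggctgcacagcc
Trem2: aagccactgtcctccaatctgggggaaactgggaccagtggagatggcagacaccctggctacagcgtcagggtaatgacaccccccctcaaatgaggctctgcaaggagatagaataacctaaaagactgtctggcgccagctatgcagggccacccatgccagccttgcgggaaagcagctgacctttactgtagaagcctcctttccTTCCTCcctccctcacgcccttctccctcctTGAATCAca
Itgax held 1 AP-1-like match (TGAGTCA) beginning 56 bases before the start, Axl 1 PU.1 core match beginning 130 bases before it, and Csf1 none of the 3 motifs. Trem2 held a PU.1 core match 40 bases and an AP-1-like match (TGAATCA, with A in the middle) 9 bases before its start. Over 32851 windows of the same length, 23.3% held GAGGAA, 12.2% TCANGTG and 6.75% TGANTCA, so single matches of this kind are common, and they describe letters only.

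Lpl (ENSMUSG00000015568, chromosome 8, 68880491 to 68907448, plus strand) encodes lipoprotein lipase, which releases fatty acids from lipoproteins. It stood at 10.6 and 7.56 CPM in young and 74.2 and 17.8 CPM in old hippocampus. The caudate putamen had 20.8 and 8.90 CPM at 3 months and 57.4 and 39.1 CPM at 21 months. Ages did not overlap within a region, yet single nuclei carried much of the old signal: 16 of the 36 UMIs of the first old hippocampal library and 26 of the 64 UMIs of the first old caudate putamen library came from 1 nucleus each. The mean difference of 2.16 (log2, SE 0.46) missed the threshold at an adjusted p of 0.0543, and it passed in 8 of 16 alternatives. In the main fit Lpl needed old libraries to pass the filter (4 old and 1 young reached it), so its 8 passes are no independent support for a rise. Without the 7 nuclei the difference was 1.13 (adjusted p = 0.184), and the old caudate putamen libraries, at 19.0 and 38.3 CPM, overlapped the young ones.

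Spp1 (ENSMUSG00000029304, chromosome 5, 104435118 to 104441050, plus strand) encodes osteopontin, a secreted ligand of integrins and Cd44. Cst7 (ENSMUSG00000068129, chromosome 2, 150570415 to 150578944, plus strand) encodes cystatin F, an inhibitor of lysosomal cysteine proteases. Neither passed the filter on low counts, so neither was tested in the fit reported here. With no filter Spp1 was called in the caudate putamen (adjusted p = 0.00785) and in the mean of both regions (0.00532) and Cst7 was not (0.750 and 0.791). In the 4 fits without 1 library in which Spp1 passed the filter it was not called, with adjusted p from 0.110 to 0.526 for the mean. Spp1 had 0 and 5 UMIs in young and 7 and 2 UMIs in old hippocampus, and 0 and 0 UMIs at 3 months against 4 and 11 UMIs at 21 months in the caudate putamen. All 5 young UMIs lay in 1 nucleus, and so did the 11 UMIs of the second old caudate putamen library. Cst7 had 1 UMI in all young libraries together, and 0, 1, 0 and 5 UMIs in the old hippocampal and old caudate putamen libraries in turn. The old to young ratio of summed Spp1 counts was 2.57 in the hippocampus (exact 95% interval 0.774 to 9.77), where it could not be told from counting error, and 6.35 over both regions (2.37 to 21.3). In the caudate putamen the 15 old UMIs against 0 young ones gave a lower limit of 4.55, and the 5 against 0 of Cst7 one of 1.16. These intervals treat UMIs as independent, which those of 1 nucleus are not.

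Apoe (ENSMUSG00000002985, chromosome 7, 19696109 to 19699188, minus strand), the main lipid carrier of the brain and an early member, was measured at 243 and 286 CPM in young and 317 and 353 CPM in old hippocampus. In the caudate putamen it was 174 and 99.0 CPM at 3 months and 280 and 209 CPM at 21 months. The ages did not overlap within a region, and the ratio of summed counts was 1.60 (exact 95% interval 1.44 to 1.77). In the hippocampus this rested on very few nuclei, since 94 of the 198 Apoe UMIs of the second old library and 28 of the 154 of the first lay in 1 nucleus each. Without the 7 nuclei rich in 1 member the old hippocampal libraries stood at 244 and 186 CPM, no longer above the young ones, and the hippocampal difference was -0.27 (log2, SE 0.25, adjusted p = 0.774). The caudate putamen difference was then 0.93 (SE 0.24, adjusted p = 0.167), in libraries where Apoe was also higher with age in the 9 of 9 other classes fitted. The mean difference of 0.65 (log2, SE 0.16) missed the threshold with an adjusted p of 0.0733 and passed in 4 of 16 alternatives.

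Trem2 (ENSMUSG00000023992, chromosome 17, 48346401 to 48354147, plus strand) stood at 118 and 93.9 CPM in young and 107 and 127 CPM in old hippocampus, and at 109 and 121 CPM against 137 and 104 CPM in the caudate putamen. Its mean difference was 0.14 (log2, SE 0.14, adjusted p = 0.755), and the ratio of summed counts was 1.07 (0.934 to 1.23). Tyrobp (ENSMUSG00000030579, chromosome 7, 30413760 to 30417585, plus strand), the adaptor that carries the Trem2 signal, had a difference of -0.17 (SE 0.18, adjusted p = 0.752) and a ratio of 0.855 (0.702 to 1.04). Young and old libraries overlapped for both genes in both regions.

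Region by region, Axl, Itgax and Csf1 rose in the caudate putamen, where 77 of 10221 genes, 0.753%, were called. The fitted differences there were 4.36 for Axl (log2, SE 0.62, adjusted p = 0.00147), 4.86 for Itgax (SE 0.94, adjusted p = 0.0142) and 2.18 for Csf1 (SE 0.47, adjusted p = 0.0322). Over the alternatives that tested them Axl passed in 16 of 17, Itgax in 10 of 14 and Csf1 in 11 of 17. For Axl and Itgax the limit set by the filter, given above, holds here too. With DESeq2 Csf1 was not called (adjusted p = 0.256) and Itgax had no adjusted p, and with doublets kept neither Csf1 (0.183) nor Itgax (0.0567) was. All 3 calls were lost without replicate 2 of the young caudate putamen, the deepest microglia sum with 647 nuclei and the only library counted with Cell Ranger 7.0.0 per its header: Axl then had a difference of 2.95 (adjusted p = 0.184) and Csf1 2.33 (0.517), and Itgax, with 0 UMIs in the young library left, an adjusted p of 0.463. That fit has 1 young caudate putamen library of 237 nuclei, assumed to vary like the other groups, so its p-values say little about stability. With the nuclei that had 2 or more T cell markers left out (4 and 6 in the old libraries), an alternative chosen after seeing the data, 3 members were called as before. Without the 7 nuclei rich in 1 member Axl was called (4.30, adjusted p = 0.00246), Csf1 was not (1.96, adjusted p = 0.0833) and Itgax was not tested. Csf1 then stood at 14.5 and 25.2 CPM in the old libraries, still above the 4.46 and 5.24 CPM of the young ones. In the hippocampus no member was called, where 13 genes, 0.127%, were. Axl there had a difference of 2.17 (SE 0.58, adjusted p = 0.195), Itgax 3.99 (SE 1.13, adjusted p = 0.233), Lpl 2.36 (SE 0.73, adjusted p = 0.344), Csf1 0.89 (SE 0.43, adjusted p = 0.503) and Apoe 0.36 (SE 0.22, adjusted p = 0.631).

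The test of the regional difference itself called no member, and 1 gene in all, 0.00978%, with 531 genes at an unadjusted p under 0.05. The difference of the age effects, caudate putamen minus hippocampus, was 2.18 for Axl (log2, SE 0.97, adjusted p = 0.943), 1.29 for Csf1 (SE 0.65, adjusted p = 0.971), 0.87 for Itgax (SE 1.98, adjusted p = 0.991) and -0.41 for Lpl (adjusted p = 0.991). The regions were therefore not shown to differ in the age change of any member, whichever members passed in 1 region only.

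**Figure D2:**
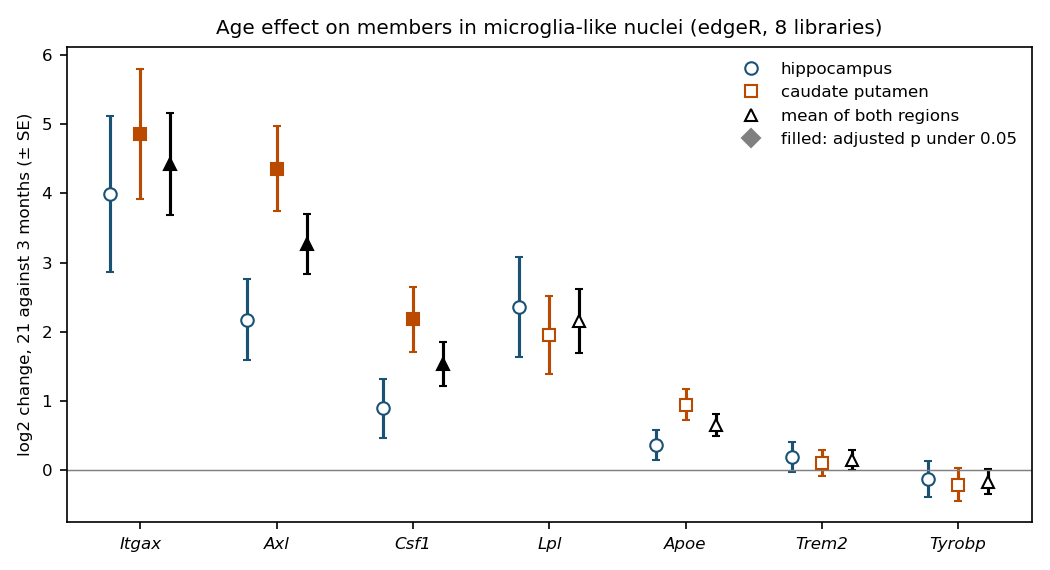
Fitted log2 difference of 21 against 3 months for each tested member in microglia-like nuclei, with bars of 1 SE (back-calculated from the test's F statistic), in each region and averaged over both. Axl, Itgax and Csf1 have filled symbols where the adjusted p passed 0.05, and Trem2 and Tyrobp lie near 0.

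Between the regions, averaged over both ages, Apoe and Csf1 were lower in microglia-like nuclei of the caudate putamen than in those of the hippocampus. Apoe differed by -0.73 (log2, SE 0.16, adjusted p = 0.0129), with 264 ± 30.7 and 335 ± 25.1 CPM in young and old hippocampus against 137 ± 53.1 and 244 ± 50.1 CPM in the caudate putamen (mean ± SD, n = 2 libraries each). Csf1 differed by -1.16 (SE 0.32, adjusted p = 0.0356), with 17.6 ± 2.55 and 33.2 ± 14.2 CPM against 4.85 ± 0.546 and 22.9 ± 4.51 CPM. These 2 of 7 stood beside 659 of 10221 genes, 6.45%, called in this comparison. Apoe passed in 11 of 16 alternatives and Csf1 in 9 of 16, and neither passed with the replicate number as a block (adjusted p = 0.327 and 0.0613). Without the 7 nuclei rich in 1 member Apoe was not called (-0.41, adjusted p = 0.259), with 215 ± 40.9 CPM in the old hippocampus.

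Whether members meet in the same nucleus was described after thinning each microglia-like nucleus to 1500 UMIs, since a deeper nucleus shows more genes. At 21 months 105 of 1066 nuclei, 9.85%, had a UMI of at least 1 inducible member, 19 nuclei, 1.78%, had 2 or more, and 1 had 3 or more. At 3 months the counts were 52 of 1331, 3.91%, 1 nucleus, 0.0751%, and 0 nuclei. At this depth most old microglia-like nuclei thus showed none of the inducible members. The count with 3 or more is unstable: it ran from 1 to 5 old nuclei over 5 settings thinned to 1500 UMIs, which differ in the nuclei kept and in the molecules drawn. Without thinning, 167 of 1193 old nuclei had at least 1, 35 (2.93%) had 2 or more, 15 (1.26%) had 3 or more and 4 had 4 or more. Of 1410 young nuclei unthinned, 83 had at least 1, 2 had 2 or more and 0 had 3 or more. A count of 0 allows up to 0.213% of nuclei with such UMIs (3 counts of the total over 4 libraries, counting error only), which is no limit on nuclei expressing the genes.

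Per library, the thinned share with 2 or more inducible members was 0% and 0.341% in young hippocampus and 3.07% and 2.14% in old hippocampus. In the caudate putamen it was 0% and 0% at 3 months and 0.8% and 2.05% at 21 months. All 4 old libraries were above all 4 young ones. Thinning left out 2 to 77 nuclei per library below 1500 UMIs, the highest number being that of the second old caudate putamen library. It draws molecules at random. Leaving out the T-cell-marker nuclei changed the draw at 21 months in the caudate putamen libraries only, since the old hippocampal ones had 0 such nuclei. The share at 21 months was then 2.17% in place of 1.78%.

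**Figure D3:**
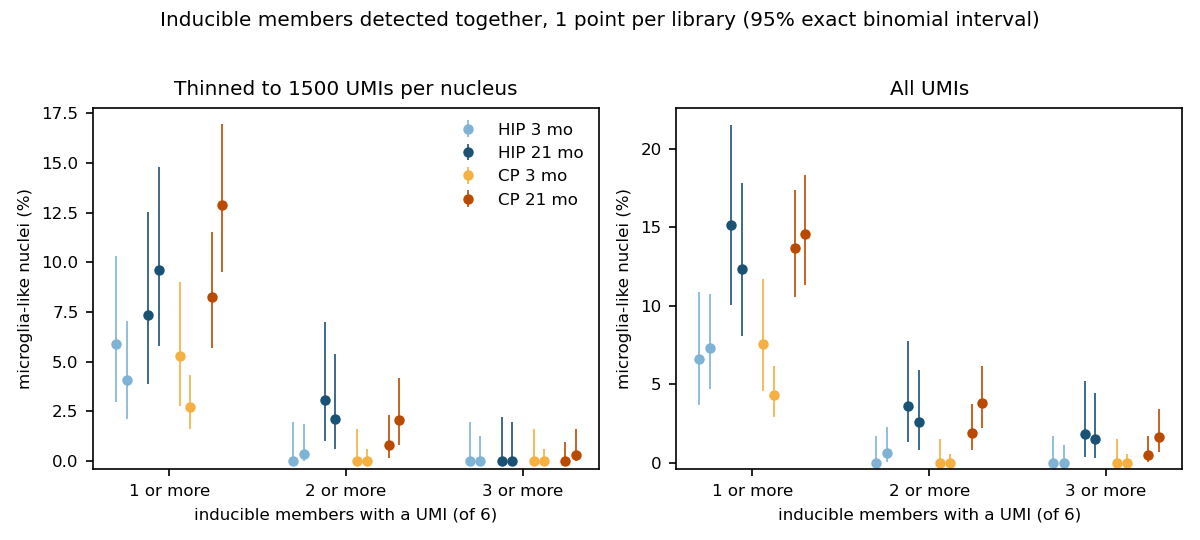
Percent of microglia-like nuclei with a UMI of 1 or more, 2 or more and 3 or more of the 6 inducible members, after thinning to 1500 UMIs (left) and with all UMIs (right), 1 point per library with exact 95% binomial intervals (counting error only). On the left, for 2 or more members, the young libraries lie between 0% and 0.341% and the old ones between 0.8% and 3.07%.

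Taken singly and unthinned, Axl was found in 68 old nuclei (5.70%) against 9 young ones (0.638%). Itgax was found in 31 (2.60%) against 2 (0.142%), Spp1 in 8 against 1 and Cst7 in 4 against 1. Csf1 and Lpl were present in a share of young nuclei as well: Csf1 was found in 56 (4.69%) against 35 (2.48%) and Lpl in 55 (4.61%) against 37 (2.62%). The early members were widespread at both ages, Trem2 in 306 old nuclei (25.6%) and 376 young ones (26.7%), Tyrobp in 155 and 237, and Apoe in 523 (43.8%) and 515 (36.5%).

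Counting every old nucleus that held both genes, whatever else it held, Axl met Lpl in 15 nuclei, Itgax met Lpl in 11, and Itgax and Csf1 each met Axl in 10. As exact combinations, with no other inducible member, Axl with Lpl was seen in 6 nuclei and Itgax with Lpl in 4. A single nucleus held Itgax, Axl, Lpl, Csf1 and Spp1 at once, 5 of the 6. The 2 young nuclei with a pair had Axl with Spp1 and Lpl with Csf1. Among the 31 old nuclei with an Itgax UMI, Lpl was found in 11 (35.5%) against 3.79% of the rest, Axl in 10 (32.3%) against 4.99% and Csf1 in 9 (29.0%) against 4.04%, higher in 4 of 4 old libraries for each. After thinning, 17 nuclei had an Itgax UMI, and the shares were 17.6% against 2.67% for Lpl, 5.88% against 3.62% for Axl and 5.88% against 2.86% for Csf1. With 1 to 3 nuclei behind each thinned share, only the Lpl difference is larger than 2 nuclei, and depth moves with these values.

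Free RNA from broken cells can give a nucleus UMIs of genes it does not express, so the same counts were made in other classes at the same thinning. Itgax was found in 0 of 16498 oligodendrocyte nuclei and 2 of 10173 astrocyte nuclei, against 17 of 1066 old microglia-like nuclei. Trem2 was found in 24 oligodendrocyte nuclei and Tyrobp in 26, at most 0.334% and 0.397% of any library. At least 2 inducible members were found in 0 of 11465 D1 and 1 of 13924 D2 medium spiny neurons, 3 of 18468 dentate granule neurons, 19 of 16498 oligodendrocytes and 43 of 10173 astrocytes. The astrocyte shares, 0.160% to 0.862% per library, stand beside shares of 5.25% to 8.52% of astrocyte nuclei with an Axl UMI and 2.24% to 5.63% with a Csf1 UMI. The part of free RNA in these was not tested. Before thinning, median depths were 2017 to 2861 UMIs in microglia-like nuclei, 2510 to 3696 in oligodendrocytes, 3939 to 5510 in astrocytes and 10017.5 to 11434 in dentate granule neurons.

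The 35 old microglia-like nuclei with 2 or more inducible members, unthinned, were compared with the other 1158 old ones as a description, with no test, since the members chose them. They came from all 4 old libraries (6 and 5 in the hippocampus, 8 and 16 in the caudate putamen) and were deeper, with a median of 3569 against 2411.5 UMIs. Nuclei with 2 or more macrophage markers (13 of the rest) or T cell markers (10 of the rest) were too rare for their count of 0 among the 35 to set these apart. Of 23 homeostatic genes with at least 100 UMIs, 21 were lower in these 35 nuclei and 2 higher, with a median log2 ratio of -1.16, and all 14 of the microglia markers were lower, with a median of -0.92. Of 17 other disease-associated genes 14 were higher and 3 lower, with a median of 0.83.

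**Figure D4:**
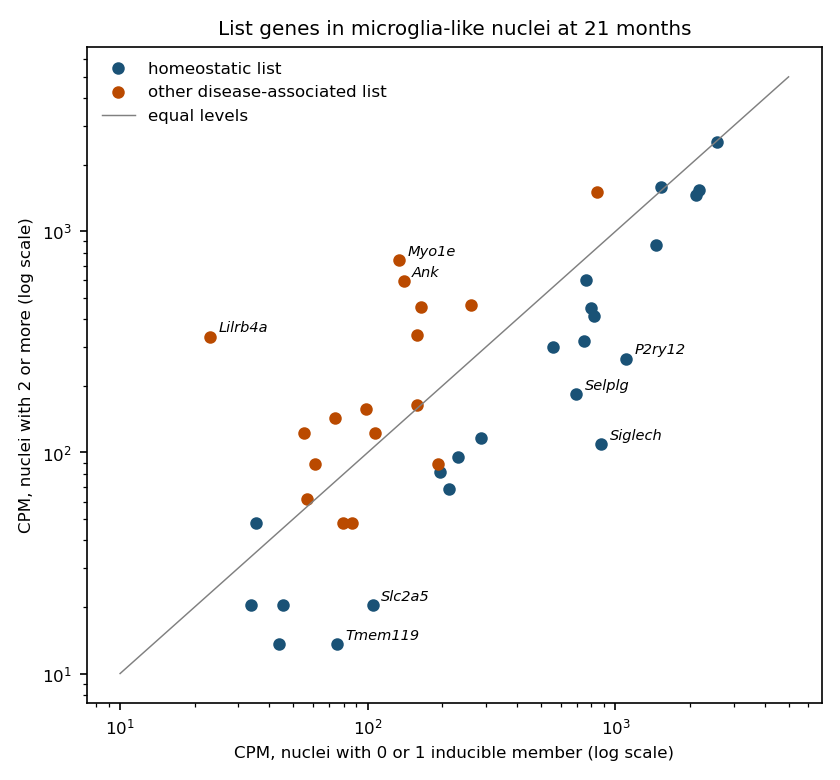
Level in CPM of each homeostatic and each other disease-associated list gene with at least 100 UMIs, in the 1158 old microglia-like nuclei with 0 or 1 inducible member (horizontal, logarithmic) and in the 35 with 2 or more (vertical, logarithmic), 1 point per gene, with a line of equal levels. Of the homeostatic genes 21 of 23 lie below the line, and of the other disease-associated genes 14 of 17 lie above it.

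Genes named from this comparison were chosen after their values were seen. Lilrb4a, an inhibitory immune receptor, stood at 334 CPM in the 35 nuclei against 23.2 CPM in the rest. The myosin Myo1e stood at 744 against 134 CPM, the pyrophosphate transporter Ank at 593 against 140 CPM, the lysosomal protease Ctsb at 457 against 165 CPM and the lysosomal and melanocyte factor Mitf at 1842 against 725 CPM. Lower were the lectin Siglech, at 109 against 875 CPM, the purinergic receptor P2ry12, at 266 against 1101 CPM, and Tmem119, at 13.6 against 75.0 CPM. The directions of Lilrb4a, Myo1e, Ank and Mitf were the same in 4 of 4 old libraries, Ctsb was higher in 3 of 4, and Siglech, P2ry12 and Tmem119 were lower in all 4. Of the early members, Trem2 stood at 54.6 CPM in these nuclei against 124 CPM in the rest, Apoe at 293 against 277 CPM and Tyrobp at 75.0 against 54.9 CPM.

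Gene lists around the members gave the wider setting of the mean age difference in all microglia-like nuclei, and they were not tested as sets. The lists were chosen with earlier results of these data known. A list's count beside the share over all genes is therefore no independent support. Of 24 other disease-associated genes tested out of 35 listed, 7 rose and 0 fell, with a median log2 difference of 0.36, beside 1.25% higher and 0.245% lower over all genes. Those with the smallest p were the adhesion molecule Cadm1 (0.76, adjusted p = 0.000174), Lilrb4a (2.60, 0.000187), Myo1e (1.05, 0.000211), the tetraspanin Cd9 (0.68, 0.00325), Ank (0.66, 0.0121) and the activation marker Cd83 (1.16, 0.0133). Of 25 homeostatic genes tested, 0 rose and 1 fell, the microglial Fc receptor-like gene Fcrls (-0.66, adjusted p = 0.00325), with a list median of -0.18. Siglech, P2ry12 and Tmem119, lower in the 35 nuclei, were not called in the class as a whole.

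Of 23 tested partners of the members (receptors, ligands, lipid transporters and transcription factors, 28 listed) 2 rose: Mitf (0.46, adjusted p = 0.00773) and the cholesterol exporter Abca1 (0.47, adjusted p = 0.0168), with a list median of 0.07. Of 15 tested genes of Trem2 and Clec7a signalling, such as Syk and Plcg2, none was called, with a median of 0.11. Of 16 interferon-responsive genes 6 could be tested and none was called, with a median of 0.75. Of the 24 other disease-associated genes, 6 rose in the caudate putamen, where 0.636% of all genes did, and 1 in the hippocampus, where 0.108% did.

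Outside microglia the members had very different ranges. Levels were described over the 10 classes in each region that had at least 20 nuclei in every library, without a test, and microglia-like nuclei were highest in 11 of 18 gene and region pairs. These are means over both ages, and the hippocampal Lpl (described below) and Spp1 pairs leaned on few nuclei. Hippocampal Spp1, at 5.85 CPM, had UMIs in 1 young and 4 old microglia-like nuclei. Pericytes or smooth muscle, with 12 nuclei in 1 old library, were not ranked in the hippocampus. Fibroblasts, with 2 nuclei in 1 young library, were not ranked in the caudate putamen. Without nuclei of 10 or more UMIs of 1 member, Spp1 had 2.70 CPM in young and 2.85 CPM in old hippocampus. At Leiden resolution 2 hippocampal Spp1 was highest in fibroblasts, at 6.15 CPM. Itgax, Trem2 and Tyrobp were near absent elsewhere in the ranked classes, and Cst7 was near the limit of detection in all, at 0.885 and 1.36 CPM in microglia-like nuclei. Trem2 stood at 111 ± 14.1 CPM in hippocampal and 118 ± 14.7 CPM in caudate putamen microglia-like nuclei (SD, n = 4 libraries), with the next class, pericytes or smooth muscle, at 3.34 CPM in the caudate putamen. Tyrobp stood at 66.2 and 56.5 CPM, with no other class above 2.82 CPM. Perivascular macrophage-like nuclei, too few for this ranking, had 28.9 and 100.2 CPM of Trem2 and 55.3 and 86.2 CPM of Tyrobp.

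**Figure D5:**
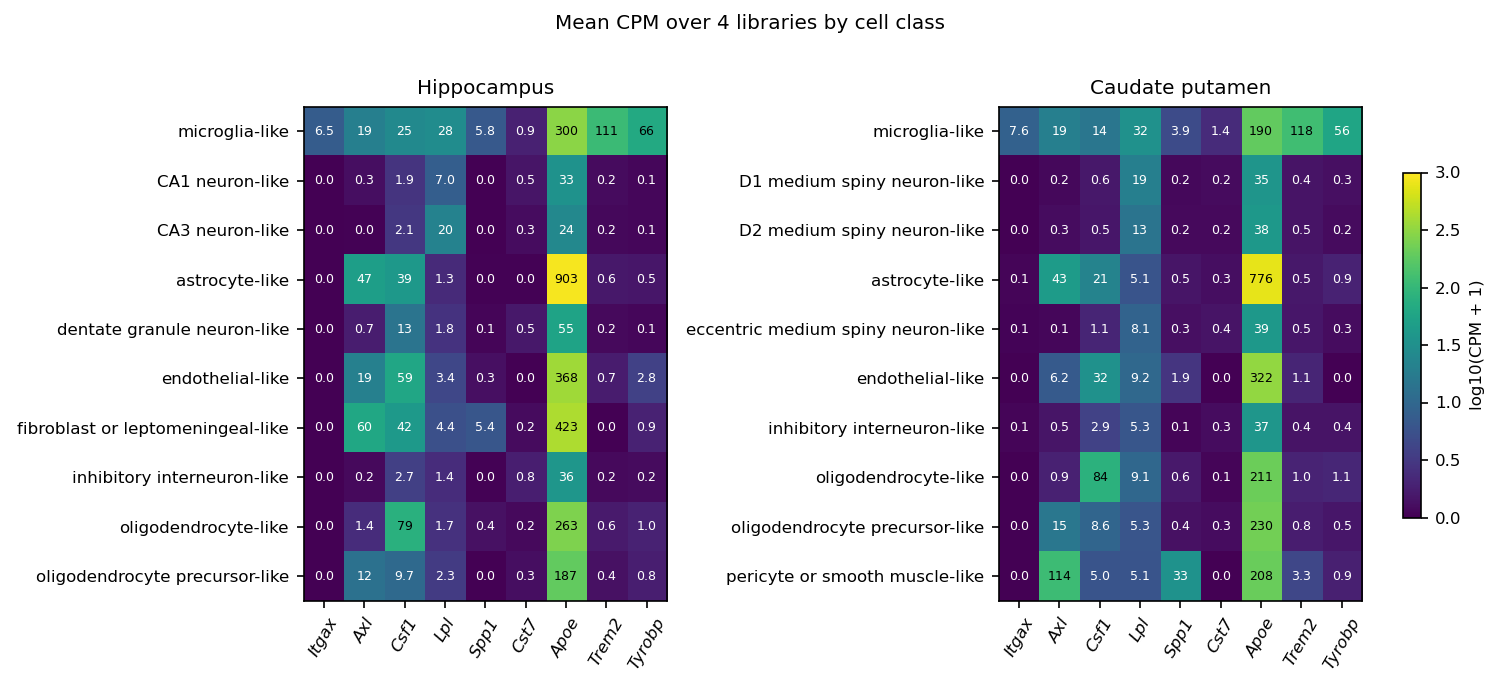
Mean level of each measured member in each class with at least 20 nuclei in every library, in CPM on a logarithmic colour scale, for the hippocampus and the caudate putamen, with the value printed in each cell. Itgax, Trem2 and Tyrobp are concentrated in the microglia-like class, while Apoe peaks in astrocytes and Csf1 in oligodendrocytes.

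Apoe was highest in astrocytes, its main source in the brain, at 903 ± 99.7 CPM in the hippocampus and 776 ± 198 CPM in the caudate putamen (SD, n = 4). Microglia-like nuclei ranked 4 in the hippocampus at 300 ± 46.8 CPM and 6 in the caudate putamen at 190 ± 75.1 CPM, beside oligodendrocytes at 263 ± 28.3 and 211 ± 77.0 CPM. Neurons had far less, such as 32.9 ± 8.47 CPM in CA1 neurons, and after thinning 5.24% to 11.8% of dentate granule nuclei per library still had an Apoe UMI against 51.9% to 75.4% of astrocyte nuclei. How much of the neuronal value was free RNA was not tested.

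Among the classes ranked in each region, Axl was highest in pericytes or smooth muscle of the caudate putamen, at 114 ± 24.3 CPM, and in fibroblasts of the hippocampus, at 59.8 ± 6.17 CPM. Each of these 2 classes was ranked in that region only. Astrocytes followed at 46.8 ± 4.26 and 42.8 ± 7.55 CPM, and microglia-like nuclei averaged 18.6 ± 14.1 and 18.9 ± 20.5 CPM, a spread made by their 2 ages. Csf1 was highest in oligodendrocytes, at 79.5 ± 16.3 and 83.8 ± 8.53 CPM, with endothelial nuclei at 59.1 ± 22.1 and 32.1 ± 16.4 CPM and microglia-like nuclei at 25.4 ± 12.3 and 13.9 ± 10.7 CPM. Averaged over both ages, Lpl was highest in microglia-like nuclei at 27.5 ± 31.4 and 31.6 ± 21.2 CPM. CA3 neurons (20.3 ± 6.95 CPM) and D1 medium spiny neurons (18.7 ± 1.44 CPM) lay within that spread. At 3 months microglia-like nuclei had 9.06 CPM in the hippocampus and 14.9 CPM in the caudate putamen, below these CA3 and D1 means. Without the 7 nuclei rich in 1 member the old hippocampus had 18.7 CPM, also below the CA3 mean. Spp1 peaked in caudate putamen pericytes or smooth muscle at 32.9 ± 9.13 CPM, a class not ranked in the hippocampus.

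Outside microglia few age differences of the members passed the test. In the mean age difference Csf1 rose in astrocytes by 0.47 (log2, SE 0.11, adjusted p = 0.0480), where 3.15% of genes tested were called, and in oligodendrocytes by 0.35 (SE 0.09, adjusted p = 0.0384), where 5.7% were. In astrocytes the hippocampal level was 33.4 ± 4.34 CPM at 3 months and 44.0 ± 0.991 CPM at 21 months, and the caudate putamen level 17.5 ± 2.67 and 24.7 ± 2.66 CPM (SD, n = 2 libraries each). In oligodendrocytes the hippocampal levels were 67.6 ± 4.46 and 91.4 ± 14.4 CPM, and those of the caudate putamen 78.7 ± 1.06 and 89.0 ± 10.5 CPM. Both calls were lost with DESeq2 (adjusted p = 0.126 and 0.0612), and each was lost in 7 of the 8 fits that left out 1 library. Axl in oligodendrocytes of the caudate putamen had a larger difference that did not pass (2.33, SE 0.68, adjusted p = 0.141). In oligodendrocyte precursors, where 2.13% of genes were called, no member was.

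Over 12 neuronal and vascular classes, each fitted in its own region, 1 of 35 tested pairs of a member and a class was called, beside 1.17% of all genes tested. Apoe was lower in old CA1 neurons of the hippocampus, by a fitted difference of -0.53 (log2, SE 0.12, adjusted p = 0.0492), from 39.8 ± 4.49 to 26.0 ± 2.41 CPM (SD, n = 2), in a class where 0.887% of genes were called. It did not pass with DESeq2 (adjusted p = 0.214) or without replicate 1 (0.123) or 2 (0.151) of the old or replicate 2 (0.229) of the young hippocampus. Larger Apoe differences that did not pass were -0.85 in CA3 neurons (SE 0.20, adjusted p = 0.177) and 0.91 in eccentric medium spiny neurons of the caudate putamen (SE 0.19, adjusted p = 0.182). The direction was shared within a region: over the classes other than microglia that were fitted, the Apoe age difference was negative in 8 of 9 in the hippocampus (-0.85 to 0.04) and positive in 9 of 9 in the caudate putamen (0.22 to 0.91). The hippocampal classes counted include CA1 neurons, and the classes of a region come from the same libraries. The part of free RNA in the CA1 value was not tested.

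Between regions the glial classes differed in some members. In astrocytes Csf1 was lower in the caudate putamen by 0.89 (difference -0.89, SE 0.11, adjusted p = 0.00014) and Lpl was higher by 1.95 (adjusted p = 0.00121), where 21% of genes were called. In oligodendrocytes Lpl was higher in the caudate putamen by 2.45 (log2, SE 0.38, adjusted p = 0.00199), where 12.9% were called. The lower Csf1 of the caudate putamen was thus measured in microglia-like and astrocyte nuclei, while the difference in oligodendrocytes was 0.06 (adjusted p = 0.715).

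Because each library pooled 1 male and 1 female, nuclei were assigned to a sex by Xist and Y-linked transcripts, which gives 1 animal per sex and library. Assigned microglia-like nuclei were 640 female and 347 male at 3 months, and 679 and 199 at 21 months. The sex make-up of the assigned nuclei thus moved with age, and the age comparisons above were not adjusted for it. No member among the 5 tested was called for sex, where 6 of 6584 genes, 0.0911%, were, or for a difference of the age effect between the sexes, where 1 gene, 0.0152%, was. Itgax and Csf1 did not pass the filter in these smaller sums. At 21 months Itgax had 34 UMIs in 679 female nuclei (19.9 CPM), found in 4 of 4 libraries, and 1 UMI in 199 male nuclei (1.79 CPM), found in 1 of 4. Lpl had 96 against 10 UMIs (56.1 and 17.9 CPM), Csf1 50 against 13 (29.2 and 23.3 CPM) and Axl 61 against 16 (35.6 and 28.7 CPM). Library by library these did not all run one way: the female level was the higher in 3 of 4 old libraries for Lpl and in 2 of 4 for Csf1 and for Axl. Lpl was higher in the male of the second old caudate putamen library, at 78.4 against 38.8 CPM. The fitted sex difference, female minus male and averaged over both ages, was 1.43 for Axl (log2, SE 0.67, adjusted p = 0.95) and 1.18 for Lpl (SE 0.48, adjusted p = 0.95). At 3 months Axl had 13 female against 1 male UMI (7.04 and 0.955 CPM) and Lpl 22 against 7 (11.9 and 6.69 CPM). Of the 35 old nuclei with 2 or more inducible members 26 were female, 3 male and 6 not assigned, against 653, 196 and 309 of the other 1158. The old male sums rest on fewer nuclei, and the Itgax difference between the sexes was not tested.

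The genes whose levels over the 8 microglia sums ran most like a member's were Kcnj12 for Itgax (Pearson's r = 0.989), Ildr2 for Axl (0.986), Xylt1 for Csf1 (0.984), Rusc2 for Lpl (0.970), Mb21d2 for Apoe (0.970), Gm28981 for Trem2 (0.974) and Gdpd3 for Tyrobp (0.967). Each is the highest value among all genes tested, over 8 points that share library and depth. Over the 20 class and region means the nearest genes were Cryba4 for Itgax (0.999), Dennd1c for Trem2 (0.995), Fcrls for Tyrobp (0.985), Mmp14 for Axl (0.986), Hacl1 for Apoe (0.970), Baz2b for Csf1 (0.947), Ajuba for Spp1 (0.922), Card9 for Cst7 (0.876) and Pfkfb3 for Lpl (0.828).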

How the data were processed

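The deposited matrices held UMI counts per gene and barcode, whole numbers that the authors had not normalized. Per the file headers they came from Cell Ranger 6.1.2 in 7 libraries and 7.0.0 in replicate 2 of the young caudate putamen, while the submitters' processing notes name Cell Ranger 4.0.0 and the mm10 build. Whether introns were counted, and with which annotation, is not given in the sources used here. A setting that differed between versions could shift levels in that library, which was not tested.

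Barcodes with under 500 genes (1307) or over 5% mitochondrial UMIs (3) were left out, as were 10604 called doublets (Scrublet, except in replicate 2 of the young hippocampus, where the automatic threshold marked 0.129% and the expected share of 16.2% set the threshold). Nuclei were clustered per region (scanpy 1.11.5, 3000 variable genes without the members, 40 components, Leiden resolution 1) and named from fixed markers, with the naming of oligodendrocytes refined after the cluster tables were seen. Counts were summed per class and library and tested with edgeR 4.0.16 (TMM, filterByExpr, robust quasi-likelihood, all 8 libraries, 1 mean per group). Benjamini-Hochberg adjustment covered all genes tested. A check on simulated data altered only genes of a higher mean level in microglia-like nuclei than Itgax, Axl and Csf1, so it does not cover these. Levels are CPM, scaled to the class sum of a library. DESeq2 1.42.0, no filter, kept doublets, Leiden resolution 2, a replicate block and leaving out each library were alternatives. Replicate numbers were not used as pairs, and the mean age difference treats the 8 libraries as separate. Deviations of replicate 1 from its group mean correlated between ages at r = 0.129 in the hippocampus and 0.0859 in the caudate putamen. Between regions r was 0.0342 at 3 months and 0.0863 at 21 months. With 2 libraries of low counts per group, such values cannot exclude that libraries share animals.

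Members and gene lists were chosen with earlier results of these data known. Named genes were all members, up to 6 called genes per list by smallest p, and the gene most correlated with each member. Coordinates are from GENCODE vM21 on GRCm38, and upstream sequences are from RefSeq GRCm38.p6, where 8 members had a window. Intervals are exact binomial, limits on a count of 0 are 3 counts of the total, and both cover counting error only. Proteins were not used here.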

Additional observations from a re-analysis of the deposited data

How the results depend on the processing

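No called member changed direction under any alternative run. Values that were not called did, all on the log2 scale. Without the 7 nuclei rich in 1 member the hippocampal age difference of Apoe was -0.27 (0.36 with them) and the regional difference of the age effect of Lpl was 0.040 (-0.41 with them). With doublets kept, Tyrobp had 0.070 for age in the hippocampus, and Trem2 had -0.073 for age in the caudate putamen and -0.13 for the region. With 1 library left out, the age difference ran from -0.30 to 0.028 for Tyrobp in the hippocampus and from -0.12 to 0.26 for Trem2 in the caudate putamen. The regional difference of the age effect then ran from -1.64 to 2.57 for Itgax, -1.14 to 0.90 for Lpl, -0.30 to 0.078 for Trem2 and -0.26 to 0.089 for Tyrobp, and the region effect from -1.01 to 1.07 for Itgax and -0.025 to 0.98 for Lpl. Of the members called for age in microglia-like nuclei, 3 in the mean of both regions, the count was 6 with no filter on low counts (Spp1 among them), 1 without the 7 nuclei rich in 1 member and 2 to 5 when 1 library was left out. Axl passed in 16 of 16 alternatives for the mean and Itgax in the 14 of 14 that tested it. In the main fit both passed the filter through old libraries alone, so these counts are no independent support for a rise. Fits in which Itgax fell below the filter, such as that without the 7 nuclei, are not counted for it. In the caudate putamen, with 3, it was 1 with DESeq2, 1 with doublets kept, 1 without the 7 nuclei, 6 with no filter and 0 to 4 when 1 library was left out, 0 of them without replicate 2 of the young caudate putamen. In the hippocampus, with 0, it was 3 with no filter and 0 to 1 when 1 library was left out, the 1 being Lpl without replicate 2 of the old hippocampus (adjusted p = 0.0474), and the Lpl difference fell from 2.36 to 1.05 on the log2 scale without replicate 1. The regional difference of the age effect stayed at 0 throughout. For the region itself, with 2, the count was 1 with DESeq2, 1 without the 7 nuclei and 0 to 2 when 1 library was left out. In other glia, with 2, it was 0 with DESeq2 and 0 to 2 with 1 library left out, and in neuronal and vascular classes, with 1, it was 0 with DESeq2, 5 with no filter and 0 to 3 with 1 library left out. The number of all genes called ran from 61 to 357 for the mean age difference, 5 to 199 for the caudate putamen, 3 to 180 for the hippocampus, 397 to 2482 for the region and 0 to 21 for the regional difference. These ranges of all genes cover microglia-like nuclei only. For other glia and for neuronal and vascular classes, the share of all genes called under these alternatives is not given. Their counts of members therefore cannot be set against a background. Where a count moved, the cause was not tested.

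Whether replicate number pairs libraries was not decided by the pairing check. With replicate number as a block, the counts of members were 1 in the hippocampus, 5 in the caudate putamen, 5 in the mean, 0 for the region, 0 for the regional difference, 1 in other glia and 3 in neuronal and vascular classes. The share of all genes called moved too, to 0.636%, 1.54%, 2.54%, 4.76%, 0.0294%, 4.45% and 3.7% in that order, from 0.127%, 0.753%, 1.5%, 6.45%, 0.00978%, 3.81% and 1.17% without the block.

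The share of old nuclei with 2 or more inducible members was 1.43% in the caudate putamen and 2.60% in the hippocampus, as means over libraries. It was 0.133% and 0.613% when a gene needed 2 UMIs, 2.88% in the caudate putamen with no thinning, and 1.81% with doublets kept and 1.17% at 1000 UMIs in the hippocampus. Depth limits these shares: among nuclei with an Itgax UMI the share with Axl moved from 5.88% to 32.3% with no thinning, with Csf1 from 5.88% to 29.0% and with Lpl from 17.6% to 35.5%. Leaving out the nuclei with T cell markers, or with 10 or more UMIs of 1 member, was chosen after seeing the data.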
